A study of Mus musculus with 9 samples.

Results

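Autophagy delivers parts of the cytoplasm, fat droplets and worn organelles among them, to the lysosome inside a double membrane. The ULK1 kinase complex starts the process, a lipid kinase complex that holds ATG14 and Beclin 1 marks the growing membrane with phosphatidylinositol 3-phosphate, 2 linked conjugation systems attach ATG8 proteins (LC3 and GABARAP) to it, and receptor proteins tie cargo to ATG8. In the liver, autophagy is known to supply substrates during fasting and to take part in the breakdown of lipid droplets, and the title of this series names Cdk4 and age-associated fat accumulation in the liver. The genes described here are 38 genes of that pathway, found by their symbol among the 23444 rows of each deposited table: 5 of the initiation complex, 5 of the lipid kinase complexes, 5 of phagophore growth, 8 of conjugation, 5 of the ATG8 family, 5 receptors, and 5 of the lysosome and its regulators. All 38 were listed, and all 38 reached 1 TPM in at least 3 libraries and were among the 10161 genes tested.

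Liver RNA of C57Bl6 mice was sequenced in 9 libraries, with 3 in each of 3 groups: mice of 2 months without treatment (young), mice of 20 to 22 months without treatment (aged), and mice of 20 to 22 months fed chow with PD-0332991 for 2 weeks (treated). PD-0332991, also called palbociclib, blocks CDK4 and CDK6, kinases of the cell cycle. Its amount in chow is labelled 450 mg/k, a unit left as it stands. No young mice received the drug. Nothing states that each library is a separate mouse, so p-values measure only the spread between libraries, which may be technical. Values are TPM, the share of all transcripts in a library that comes from one gene, so levels are per length and can be compared between genes. How deeply each library was sequenced cannot be read from TPM, and counting error is therefore not given.

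The rows summed to 53.1% to 57.7% of the TPM total in each library, and the remainder is not analysed here. Of 10 hepatocyte markers all reached 1 TPM, and their summed level lay between 26435 and 31213 TPM in all 9 libraries. The 8 Kupffer cell (liver macrophage) markers summed to 86.9 to 139 TPM in young, 80.6 to 119 TPM in aged and 71.8 to 79.5 TPM in treated libraries, and the 8 listed of 9 neutrophil markers to 3.27 to 4.13, 9.35 to 26.6 and 25.0 to 35.0 TPM. Of these, 8 Kupffer cell and 3 neutrophil markers entered the test. None passed with age or with the drug in aged mice (against 1.10% and 1.45% of all genes). With the drug all 8 Kupffer cell markers lay below 0. Of these, 3 had an unadjusted p under 0.05 (37.5%, against 18.2%) and 5 did not overlap (62.5%, against 22.4%). With age 1 of the 8 lay above 0, and 2, both lower, had an unadjusted p under 0.05 (25%, against 15.0%). There 1 did not overlap (12.5%, against 18.4%). All 3 tested neutrophil markers had an unadjusted p under 0.05 and were higher in both comparisons (100%, against 15.0% and 18.2% of all genes). They were S100a8, S100a9 and Retnlg. Elane and Cxcr2, too low to enter the test, had lower means in treated than in aged livers. These were 0.129 against 0.364 TPM and 0.428 against 0.574 TPM. Csf3r, also too low, had a higher mean (0.796 against 0.650 TPM), and Mpo and Ngp were at or near 0. In treated against young livers 4 Kupffer cell markers were called lower and 3 neutrophil markers higher (50% and 100%, against 6.88%). Retnlg read 0.178, 0.576 and 0.204 TPM in young libraries. It entered the test only through libraries of old mice, where it was higher, so the neutrophil shares of 100% were partly set by the filter. Of the listed neutrophil markers 2 were at 0 in all young libraries, and 1 in all aged and in all treated ones. The 16 acute phase genes, which hepatocytes secrete in inflammation, summed to 11787 to 18915, 12236 to 40120 and 28134 to 41426 TPM. Sinusoidal endothelial (62.4 to 85.9 TPM over all libraries), stellate cell (50.3 to 87.3 TPM), cholangiocyte (8.94 to 22.6 TPM) and lymphocyte (1.83 to 8.41 TPM) marker sums overlapped between aged and treated libraries. Tested were 10 hepatocyte, 8 sinusoidal endothelial, 8 stellate cell, 2 of 6 cholangiocyte and 2 of 8 lymphocyte markers. With age 1 stellate cell and 1 sinusoidal endothelial marker were called lower and 1 cholangiocyte marker higher (12.5%, 12.5% and 50%, against 1.10%). The last was Sox9, under 1 TPM in all young libraries and tested only through libraries of old mice, where it was higher. Other cholangiocyte markers had lower means in aged than in young livers. Krt19 was at 0.428 against 1.15, Krt7 at 0.205 against 0.586 and Epcam at 0.201 against 0.336 TPM. Spp1 was at 14.2 against 16.8 TPM, and Cftr was near 0. In treated against young livers 1 hepatocyte and 1 stellate cell marker were called lower (10% and 12.5%, against 6.88%). With the drug in aged mice none of these tested markers was called (against 1.45% of all genes). Most cholangiocyte and lymphocyte markers were too low to enter the test and could not be called. All 16 acute phase genes were higher in treated than in young livers without overlap (100%, against 33.9% of all genes). Of these 16, 2 passed the test (12.5%, against 6.88%). Aged replicate 3 stood apart from the other 2 aged libraries in clock genes, whose values are given with that gene list, and in others. In aged replicates 1, 2 and 3, Steap4 read 133, 105 and 17.2 TPM and Fga 2107, 1823 and 882 TPM. Hnf4a read 189, 181 and 96.4 TPM, and Nr1h4 38.9, 41.4 and 65.6 TPM. Leaving that library out raised the number of all genes called from 112 to 696 with age and from 147 to 392 with the drug. In that fit 6 of 16 acute phase genes and 2 of 10 hepatocyte markers, Hnf4a and Fgb, were called higher with age and none lower. The part of these differences in the results on autophagy genes was not tested. In bulk tissue, fewer cells of a type and less RNA per cell cannot be told apart.

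Atg14, the gene with the largest change of the set, encodes the subunit that targets the lipid kinase complex to the site where autophagosomes form. It lies on chromosome 14, 47540893 to 47568434 (RefSeq, build GRCm38.p6, the assembly that mm10 denotes). The 250 bases before its annotated start and the first 10 bases from it, chr14:47568425-47568684 on the minus strand, are shown because they hold matches to 2 kinds of motif. Capitals mark TTTGGCGC and TTTCCCGC, which are among the 4 spellings searched for E2F, the factors that RB holds back when CDK4 and CDK6 are inactive, and CACGTGAC, the reverse complement of GTCACGTG.

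Atg14: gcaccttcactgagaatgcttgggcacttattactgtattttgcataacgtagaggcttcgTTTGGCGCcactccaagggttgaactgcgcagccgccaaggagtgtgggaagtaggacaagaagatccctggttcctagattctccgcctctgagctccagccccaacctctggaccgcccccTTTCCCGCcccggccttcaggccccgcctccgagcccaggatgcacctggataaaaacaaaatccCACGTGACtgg

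GTCACGTG is the core of the CLEAR element, the sequence that TFEB and TFE3 bind at lysosomal and autophagy genes. Promoter windows of 300 bases, 250 before and 50 from the start, were found in RefSeq for 31 of the 38 genes (36 windows), and the motifs were chosen after the Atg14 sequence had been read. GTCACGTG, searched on both strands, was in 4 of the 36 windows, those of Atg14, Atg3, Atg7 and Lamp1, and in 2.25% of all 32851 windows. The match in Atg14 was thus known before the search. Its surroundings in each are shown with 12 bases on either side so that the copies can be compared, with the motif in capitals.

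Atg14 (chr14:47568416-47568447, minus strand): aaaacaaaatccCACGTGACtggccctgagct
Lamp1 (chr8:13159121-13159152, plus strand): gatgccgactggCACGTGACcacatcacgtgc
Atg3, first copy (chr16:45158721-45158752, plus strand): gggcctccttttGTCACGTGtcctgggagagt
Atg3, second copy (chr16:45158744-45158775, plus strand): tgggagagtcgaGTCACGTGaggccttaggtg
Atg7 (chr6:114670950-114670981, plus strand): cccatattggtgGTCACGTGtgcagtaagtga

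The copy of Atg14 covers the start itself, from base -1 to base 7, counted with the start as base 1. That of Lamp1 runs from -28 to -21 and that of Atg7 from -134 to -127. The Atg7 window belongs to a start inside the annotated gene (chromosome 6, 114643127 to 114860604), not to its first base. No window at the first base of Atg7 was searched. The copies of Atg3 run from -96 to -89 and from -73 to -66. The shorter E-box CACGTG, which GTCACGTG contains, was in 6 of the 36 windows, with Atg5 and Bnip3 added, and in 7.15% of all windows. The E2F spellings TTTCCCGC, TTTCGCGC, TTTGCCGC and TTTGGCGC were in 3 of the 36 windows, those of Atg14, Atg7 and Pik3r4, and in 2.26% of all windows. GTAAACA, a site of the FOXO factors, was in none of the 36 windows and in 3.65% of all windows.

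The first comparison asked how these genes differ between untreated livers of 20 to 22 and of 2 months. No gene of the 38 passed the test (limma, Benjamini-Hochberg adjusted p under 0.05 over all 10161 genes), where 1.10% of all genes did. An unadjusted p under 0.05 was reached by 8 of them (21.1%), 1 higher and 7 lower in aged livers, against 15.0% of all genes. The libraries of the groups did not overlap for 12 genes (31.6%), 2 higher and 10 lower, against 18.4% of all genes. The median log2 fold change of the 38 was -0.10, with 9 of them above 0, and that of all genes tested was -0.01. The 95% intervals of all 38 genes excluded a change of 1 on the log2 scale in either direction.

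The second comparison set treated against untreated livers of aged mice. Of the 38 genes 2 rose, Atg14 and Ulk1, and none fell (5.26%, against 1.45% of all genes called). An unadjusted p under 0.05 was reached by 9 (23.7%), 5 higher and 4 lower, against 18.2% of all genes. There was no overlap for 14 (36.8%), 8 higher and 6 lower, against 22.4% of all genes. Their median log2 fold change was -0.01 with 18 above 0, and that of all genes tested was -0.09. With median-of-ratios scaling or quantile normalization, which bring the median of all genes to -0.00 or -0.02, 24 of the 38 lay above 0. For 37 of the 38 genes, all but Atg14, the 95% interval excluded a change of 1 on the log2 scale. The third comparison, treated against young livers, shares its treated libraries with the second and its young ones with the first. In it Atg14 was higher, Wipi1 was lower and no other gene of the 38 passed (5.26%, against 6.88% of all genes), and 15 (39.5%) reached an unadjusted p under 0.05, against 24.8%. Without overlap were 19, 6 higher and 13 lower, against 33.9% of all genes.

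**Figure D1:**
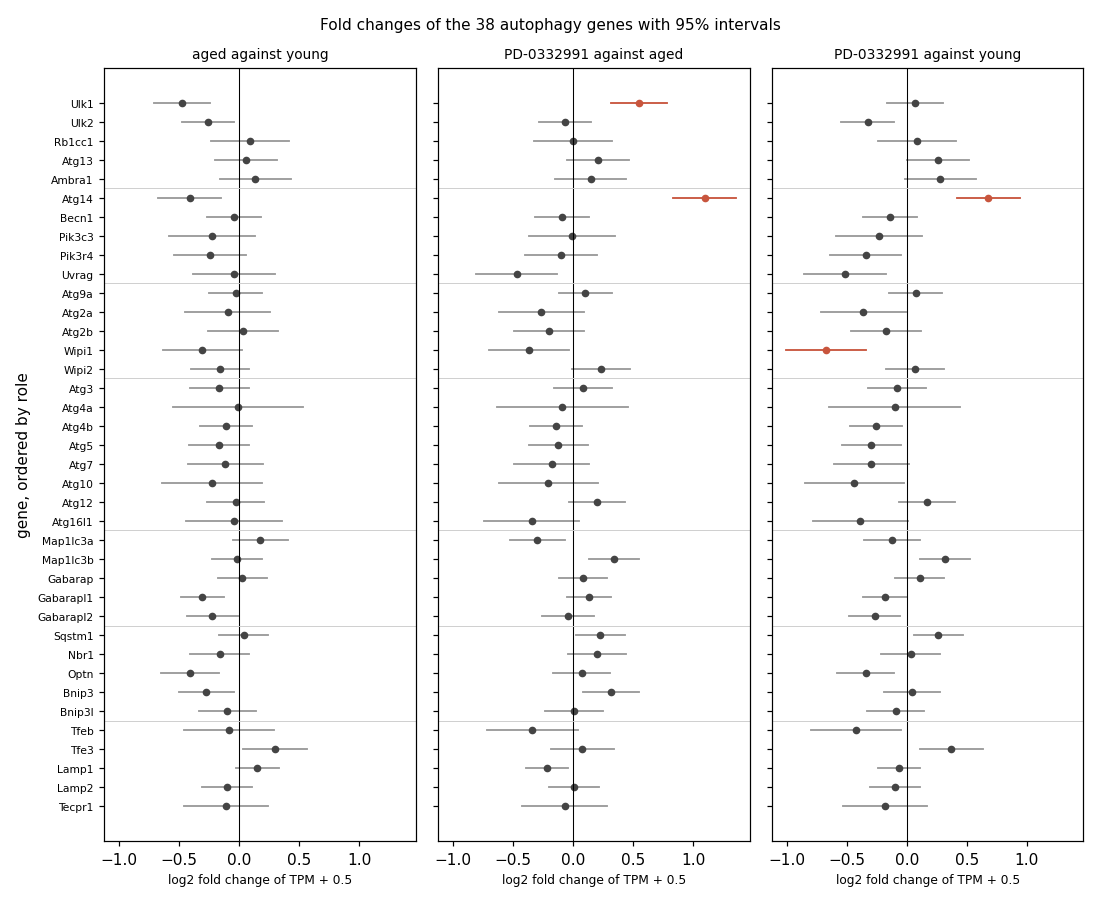
Log2 fold changes of TPM + 0.5 for the 38 genes in the 3 comparisons, with 95% intervals from the limma fit; genes are ordered by role with lines between roles, and red marks an adjusted p under 0.05. Intervals that exclude 0 number 8, 9 and 15 of 38 in the 3 panels, and Atg14 at 1.09 is the farthest from 0.

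Within the lipid kinase complexes, Atg14 read 5.44, 5.18 and 5.26 TPM in young replicates 1, 2 and 3, 4.24, 3.68 and 3.63 TPM in aged, and 8.31, 9.75 and 8.35 TPM in treated replicates. All 3 treated libraries lay above all 6 untreated ones, and the aged libraries lay below the young. From aged to treated livers it rose from 3.85 ± 0.340 to 8.80 ± 0.818 TPM (mean ± SD of n = 3 libraries, as in later sentences). Its log2 fold change was 1.09 with a standard error of 0.12, the form used for later fold changes too (limma adjusted p = 0.00961). Treated livers also exceeded the young mean of 5.29 ± 0.132 TPM, by 0.68 ± 0.12 (limma adjusted p = 0.00949, and 0.0516 without treated replicate 2). The lower level in aged than in young livers, -0.42 ± 0.12, did not pass the threshold (limma adjusted p = 0.129).

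Uvrag encodes the subunit that takes the place of ATG14 in a second complex with the same kinase, which acts on endosomes and on autophagosome maturation. Uvrag (chromosome 7, 98886742 to 99141167) read 6.37, 5.34 and 5.80 TPM in young, 5.41, 5.12 and 6.43 TPM in aged, and 4.31, 3.08 and 4.52 TPM in treated libraries. The treated libraries were the lowest of the 9, but the differences of -0.47 ± 0.15 from aged (limma adjusted p = 0.150) and -0.52 ± 0.15 from young livers (0.0687) did not pass, though the latter passed without aged replicate 3 (0.0386). The level of Atg14 divided by that of Uvrag, a ratio within each library chosen after the values were seen, was 0.854, 0.971 and 0.908 in young, 0.785, 0.720 and 0.565 in aged, and 1.93, 3.16 and 1.85 in treated libraries. The order of the pair thus differed between groups, with Uvrag the higher transcript in all 6 untreated libraries and Atg14 the higher in all 3 treated ones. The geometric mean ratio was 3.28-fold higher in treated than in aged livers (exact two-sided permutation p = 0.1, the smallest that 3 against 3 libraries allow). Since the ratio was chosen after the libraries were seen to separate, that p-value was fixed in advance and lends it no support.

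**Figure D2:**
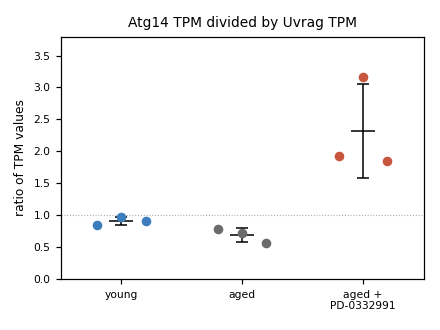
Atg14 TPM divided by Uvrag TPM in each library, by group, with the mean and SD in black and a dotted line at equal levels. The treated libraries lie between 1.85 and 3.16 and the untreated ones between 0.565 and 0.971.

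The other 3 genes of the lipid kinase complexes encode subunits common to both. Pik3c3, the catalytic lipid kinase, was at 4.63 ± 0.531 TPM in young, 3.89 ± 0.541 in aged and 3.90 ± 0.808 in treated livers. Becn1, Beclin 1, was at 26.1 ± 1.12, 25.3 ± 2.03 and 23.7 ± 2.04 TPM and was the most abundant of the 5. The 95% interval of its log2 fold change with the drug ran from -0.32 to 0.13, and that of Pik3c3 from -0.37 to 0.35. Pik3r4, the regulatory subunit, read 3.71, 3.20 and 3.75 TPM in young, 2.92, 2.93 and 2.90 TPM in aged, and 3.15, 2.49 and 2.47 TPM in treated libraries. All treated and aged values of Pik3r4 lay below the young ones, and neither difference from young passed (limma adjusted p = 0.145 for treated, 0.436 for aged). Becn1 overlaps Cntd1 in the annotation, as Atg4a does Psmd10 and Atg12 does Ap3s1, and whether the counting used strand is not stated.

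Among the initiation genes, Ulk1, the kinase that starts autophagosome formation (chromosome 5, 110784489 to 110810120), read 15.1, 14.0 and 15.7 TPM in young, 10.2, 11.4 and 10.1 TPM in aged, and 16.2, 14.2 and 16.8 TPM in treated libraries. The aged libraries lay below all 6 others, and the young and treated ranges overlapped. Ulk1 rose with the drug by 0.55 ± 0.11 (log2; limma adjusted p = 0.0313). That call was lost without young replicate 1, aged replicate 1 or 2, or any 1 of the treated replicates (adjusted p from 0.0580 to 0.134). It was also lost with no filter on low values (0.0590), with only the aged and treated libraries in the fit (0.0918) and with a replicate block (0.0725). The lower level with age, -0.48 ± 0.11, did not pass (limma adjusted p = 0.0616), but did without aged replicate 3 (0.0440) or with quantile normalization (0.0419). Treated and young livers differed by 0.07, with a 95% interval from -0.17 to 0.30.

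Ulk2, the related kinase, was at 10.6 ± 0.470 TPM in young, 8.81 ± 0.101 in aged and 8.39 ± 0.419 in treated livers, with a log2 fold change with the drug of -0.07 and a 95% interval from -0.29 to 0.15. All 6 libraries of old mice lay below the young ones, though neither difference from young passed (limma adjusted p = 0.256 for aged and 0.0702 for treated). The other 3 genes of the initiation step, Atg13 and Rb1cc1 (FIP200) of the ULK1 complex and Ambra1, which links it to Beclin 1, had means over all libraries from 3.85 TPM for Rb1cc1 to 16 TPM for Atg13. None of them reached an unadjusted p under 0.05 in any comparison.

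**Figure D3:**
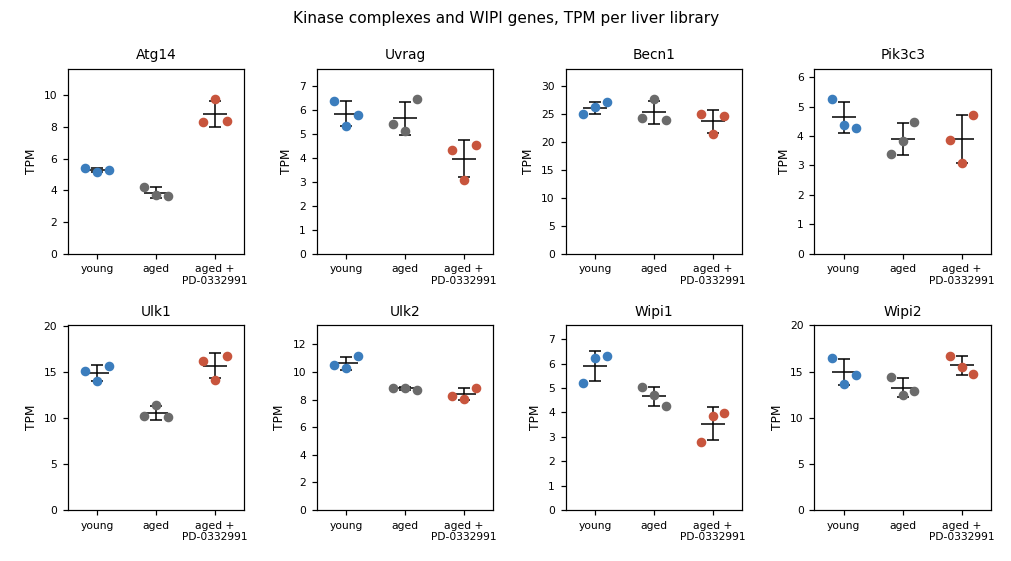
TPM per library of 8 genes of the kinase complexes and the WIPI family, by group, with the mean and SD in black and axes that start at 0. Atg14 and Ulk1 are lowest in aged livers, Uvrag and Wipi1 are lowest in treated livers, and Becn1 and Pik3c3 overlap across the groups.

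Phagophore growth depends on the lipid scramblase ATG9, the lipid transfer proteins ATG2 and the WIPI proteins, which bind the phosphatidylinositol 3-phosphate that the ATG14 complex makes. Wipi1 (chromosome 11, 109573521 to 109611389) read 5.19, 6.22 and 6.33 TPM in young, 5.03, 4.73 and 4.26 TPM in aged, and 2.77, 3.86 and 4.0 TPM in treated libraries. The 3 groups did not overlap and were ordered young, aged, treated. Wipi1 fell by 0.67 on the log2 scale from young to treated livers (SE 0.15; limma adjusted p = 0.0240). Without any 1 of the young replicates, or without treated replicate 1 or 2, the adjusted p of Wipi1 was between 0.0534 and 0.0923, and it was 0.0524 with median-of-ratios scaling and 0.0521 with quantile normalization. Its difference between treated and aged livers, -0.37 ± 0.15, did not pass (0.232). Wipi2, which recruits the ATG16L1 conjugation complex, was at 14.9 ± 1.42, 13.3 ± 1.04 and 15.7 ± 1.0 TPM, and all treated values lay above the aged ones (log2 fold change 0.23, limma adjusted p = 0.288). Atg2a read 9.30, 6.67 and 6.46 TPM in young, 6.48, 7.29 and 6.85 in aged, and 6.53, 4.60 and 5.94 in treated libraries, with young replicate 1 apart from the rest. Atg9a (16.8 TPM over all libraries) and Atg2b (2.84 TPM) reached an unadjusted p under 0.05 in no comparison.

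The conjugation genes ranged from 2.18 TPM for Atg10, an E2-like enzyme, to 31.6 TPM for Atg3, the E2-like enzyme that attaches ATG8 to lipid. None of the 8 passed in any comparison. All 8 lay below 0 in aged against young livers, between -0.23 and -0.01, and 2 of 8, Atg3 and Atg12, lay above 0 with the drug. Against young livers, 3 had an unadjusted p under 0.05, all lower in treated livers (37.5%, against 24.8% of all genes in either direction, of which 1826 of 2524 were lower). Atg4b, a protease that prepares ATG8, read 10.1, 9.26 and 9.67 TPM in young, 8.94, 8.70 and 9.03 in aged, and 8.05, 7.67 and 8.34 in treated libraries. Like Wipi1, Atg4b was ordered young, aged, treated without overlap (log2 fold change of treated against young -0.26, limma adjusted p = 0.139). Atg5, the partner of ATG12, was at 23.3 ± 2.27, 20.6 ± 1.58 and 18.9 ± 1.73 TPM (-0.29, limma adjusted p = 0.134), with 20.8, 25.3 and 23.7 TPM in young, 19.2, 20.3 and 22.3 TPM in aged and 16.9, 20.1 and 19.6 TPM in treated libraries. Atg10 read 2.87, 3.15 and 1.86 TPM in young, 2.14, 2.29 and 1.95 in aged, and 1.83, 1.41 and 2.13 in treated libraries, and its groups overlapped. Atg3 and Atg7, whose promoter windows share GTCACGTG with Atg14, had log2 fold changes with the drug of 0.08 (95% interval -0.16 to 0.33) and -0.18 (-0.49 to 0.13). The Atg7 window lies at an internal start of that gene.

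The ATG8 family, which coats the autophagosome and binds receptors, was the most abundant role of the set per length. Gabarap stood highest at 267 TPM over all libraries, followed by Gabarapl1 at 162, Gabarapl2 at 72.5, Map1lc3b at 68.8 and Map1lc3a at 56.4 TPM. Map1lc3b, which encodes LC3B, read 67.3, 61.8 and 62.3 TPM in young, 69.7, 59.5 and 59.6 TPM in aged, and 81.7, 80.9 and 76.8 TPM in treated libraries. All treated libraries of Map1lc3b exceeded the other 6, but neither the difference from aged (0.34 ± 0.09, limma adjusted p = 0.0969) nor that from young livers (0.32 ± 0.09, 0.0649) passed. The difference of Map1lc3b from young passed with median-of-ratios scaling (adjusted p = 0.0286), and it also passed without aged replicate 3 (0.0435).

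Map1lc3a, encoding LC3A, had its lowest mean in treated livers. It read 58.5, 51.6 and 56.3 TPM in young, 59.0, 59.3 and 70.1 in aged, and 52.9, 46.4 and 53.7 in treated libraries. The treated values of Map1lc3a lay below the aged ones (-0.30 ± 0.11, limma adjusted p = 0.175). Map1lc3a and Map1lc3b were thus at 62.8 ± 6.29 and 62.9 ± 5.85 TPM in aged livers and at 51.0 ± 4.04 and 79.8 ± 2.60 TPM in treated livers, and the difference between the 2 genes' changes was not tested.

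Gabarapl1 read 183, 186 and 174 TPM in young, 146.3, 145.9 and 146.0 in aged, and 156, 154 and 170 in treated libraries. Its 3 groups did not overlap, with aged lowest and young highest, and the difference of aged from young, -0.31 ± 0.08, did not pass (limma adjusted p = 0.108). Gabarapl2 was at 81.0 ± 4.88 TPM in young, 69.4 ± 7.01 in aged and 67.2 ± 0.896 in treated livers, with 79.5, 77.1 and 86.5, then 70.4, 61.9 and 75.8, then 67.4, 68.0 and 66.2 TPM per library. All 6 libraries of old mice were below the young ones for Gabarapl2, without passing (limma adjusted p = 0.314 for aged, 0.120 for treated). Gabarap read 247, 288 and 243 TPM in young, 263, 259 and 268 in aged and 267, 279 and 290 in treated libraries, and its groups overlapped young. Genes of this family are alike in sequence, so reads could be divided among them unevenly, and Map1lc3b and Gabarapl1 each overlap another listed gene (Zcchc14 and 1700101I11Rik).

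**Figure D4:**
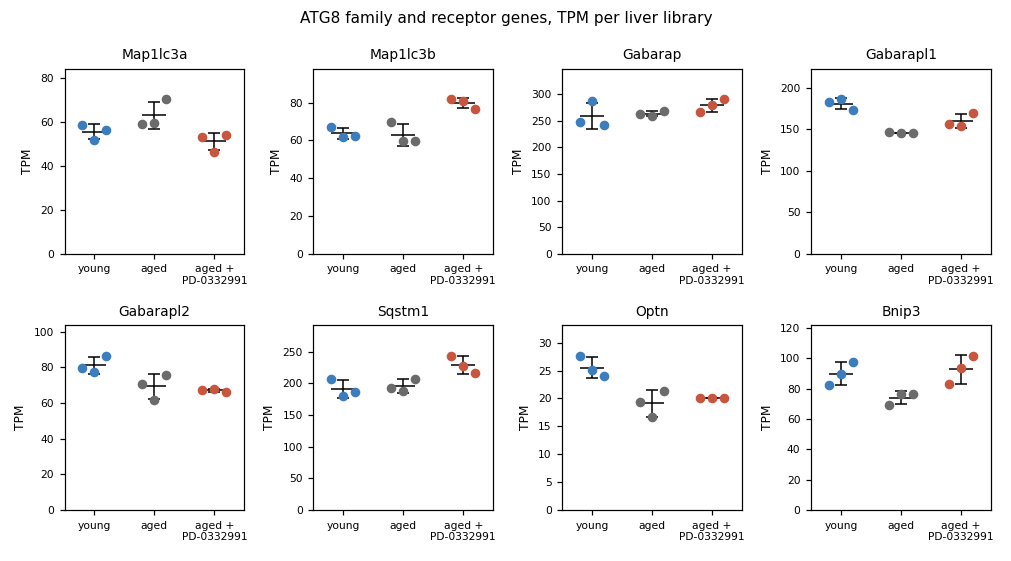
TPM per library of the 5 ATG8 genes and 3 receptor genes, by group, with the mean and SD in black and axes that start at 0. Map1lc3b and Sqstm1 are highest in treated livers, Map1lc3a is lowest there, and Optn is highest in young livers.

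Receptors tie cargo to ATG8 proteins. Sqstm1, encoding p62, read 206, 180 and 186 TPM in young, 192, 187 and 207 in aged, and 243, 227 and 216 in treated libraries. Its treated libraries were the highest of the 9, yet the log2 fold change of 0.23 ± 0.09 against aged livers (limma adjusted p = 0.232) and that of 0.26 against young (0.111) did not pass, the latter reaching 0.0364 with median-of-ratios scaling. Bnip3, a receptor on mitochondria, was at 89.8 ± 7.64 TPM in young, 74.1 ± 4.38 in aged and 92.7 ± 9.41 in treated livers. Bnip3 read 82.1, 89.9 and 97.4, then 69.0, 76.6 and 76.7, then 82.9, 93.5 and 102 TPM per library, with the aged libraries below all others (0.32 ± 0.11 with the drug, limma adjusted p = 0.152). Optn, optineurin, read 27.6, 25.0 and 24.0 TPM in young and 19.4, 16.6 and 21.4 in aged libraries, and 20.0 TPM in each treated one. The lower level of Optn with age, -0.41 ± 0.11, was short of the threshold (limma adjusted p = 0.102), as was that in treated against young livers (-0.34, 0.0815), and with aged replicate 3 left out both passed (0.022 and 0.0446). Bnip3l and Nbr1, the other receptors, had unadjusted p over 0.05 in every comparison.

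Of the lysosomal genes, Lamp1, a main glycoprotein of the lysosome membrane, read 249, 254 and 271 TPM in young, 289, 278 and 290 in aged, and 249, 243 and 247 in treated libraries. The aged libraries were the highest for Lamp1, and its differences were small: -0.22 ± 0.08 with the drug (limma adjusted p = 0.192) and 0.15 ± 0.08 with age (0.422). Lamp1 also has GTCACGTG in its promoter window. Tfeb, a master regulator of lysosomal and autophagy genes, read 3.94, 4.54 and 3.44 TPM in young, 3.38, 3.33 and 4.47 in aged, and 2.27, 2.86 and 3.43 in treated libraries, and the treated values were below the young ones by a small margin (-0.42, limma adjusted p = 0.152). Tfe3, its relative, was at 7.62 ± 0.830, 9.46 ± 1.03 and 9.97 ± 0.348 TPM, with 8.40, 6.75 and 7.71 TPM in young, 10.3, 9.83 and 8.29 TPM in aged and 9.64, 9.93 and 10.3 TPM in treated libraries. All treated values of Tfe3 lay above the young ones (0.37, limma adjusted p = 0.0857, and 0.0475 without aged replicate 3 or 0.0452 with median-of-ratios scaling). Lamp2 (179 TPM over all libraries) and Tecpr1 (1.56 TPM), which acts in autophagosome to lysosome fusion, reached an unadjusted p under 0.05 in no comparison.

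Other genes of the pathway were taken from lists that, like the 38 genes, were chosen with earlier results of these data known. Of 27 tested genes of further autophagy machinery (29 listed), none passed in any comparison, with a median log2 fold change of -0.06 with the drug. Atg16l2, a homologue of Atg16l1, had the smallest unadjusted p of these, at 5.38 ± 0.959 TPM in aged and 11.2 ± 3.91 TPM in treated livers (0.95, limma adjusted p = 0.0754), and Snap29, a SNARE of autophagosome fusion, followed (0.39, 0.175). Of 17 tested further receptors none passed, with a median of 0.00; Stbd1, a receptor for glycogen, had a log2 fold change of 0.81 with the drug (limma adjusted p = 0.179) and Fam134b, a receptor of the endoplasmic reticulum, one of 0.36 (0.206). None of 37 lysosomal enzymes and membrane proteins passed in any comparison, and their median with the drug was -0.05. Of these, 8 had treated libraries all below the aged ones and none all above (21.6% without overlap, against 22.4% of all genes). Gusb (-0.44, limma adjusted p = 0.159) and Sgsh (-0.56, 0.169) had the smallest unadjusted p. Without aged replicate 3, Npc1 was called lower with age and higher with the drug, and Ctsf, Glb1 and Lipa lower against young livers. Against young livers that fit also called Nrbf2 of the further machinery higher and Calcoco1 of the further receptors lower. It called 696 of all genes with age, 392 with the drug and 1263 against young.

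Of 27 tested genes of nutrient sensing by mTORC1 and AMPK, kinases that restrain and promote ULK1, 1 fell with age (3.7%, against 1.10% of all genes called) and none passed with the drug (against 1.45%). The fit without aged replicate 3 called 696 of all genes with age and 392 with the drug, against 112 and 147 with all libraries. In it, 1 of these 27 was higher and 2 were lower with age, and 1, Flcn, was higher with the drug. Flcn, folliculin, a regulator of the Rag GTPases through which mTORC1 acts on TFEB and TFE3, read 11.9, 9.26 and 11.0 TPM in young, 6.19, 5.54 and 7.29 in aged, and 8.56 to 11.7 in treated libraries. The aged libraries lay below all others. Flcn fell by 0.72 on the log2 scale with age (limma adjusted p = 0.0463), a call that held without aged replicate 3 and was lost without any other library (0.0507 to 0.195). Its difference with the drug was 0.63 (0.0608). Fnip1, the folliculin partner, was at 3.64 ± 0.546, 2.19 ± 0.135 and 3.15 ± 0.711 TPM (-0.61 with age, limma adjusted p = 0.116; 0.42 with the drug, 0.223). Ddit4, an inhibitor of mTORC1, had its highest level in aged livers, at 2.04 ± 0.596, 4.72 ± 0.840 and 2.45 ± 0.671 TPM (1.06 with age, limma adjusted p = 0.0525; -0.84 with the drug, 0.0927).

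Of 16 tested transcription factors known to act on autophagy genes, 1 fell with age (6.25%, against 1.10% of all genes called), and with the drug 2 rose and 1 fell (18.8%, against 1.45%). Ppara, the fasting-activated nuclear receptor, read 21.3, 19.5 and 19.7 TPM in young, 9.83, 9.83 and 13.8 in aged, and 20.0, 22.4 and 19.8 in treated libraries. Its fall of 0.84 on the log2 scale with age (limma adjusted p = 0.0144) was lost without young replicate 1 or 2 or aged replicate 1 (0.0566 to 0.0869), and its rise of 0.88 with the drug (0.0158) without treated replicate 2 or 3 (0.0613 and 0.0728). Treated and young livers differed in Ppara by 0.04, with a 95% interval from -0.25 to 0.33. Cebpb rose with the drug from 81.2 ± 9.15 to 159 ± 27.3 TPM (0.96, limma adjusted p = 0.0156, and 0.0577 without treated replicate 3). Atf4, a stress factor that induces autophagy genes, fell from 92.8 ± 5.41 to 66.0 ± 4.84 TPM (-0.49, limma adjusted p = 0.0336), a call lost without young replicate 1 or 2, aged replicate 2 or any 1 treated replicate (0.0510 to 0.139). Against young livers Cebpb was higher by 0.96 (limma adjusted p = 0.00424) and Atf4 lower (-0.37, 0.0453, lost in 7 of 9 fits). With the drug, E2f1 (-0.69, limma adjusted p = 0.112) and Foxk1 (0.34, 0.285) did not pass. E2f1 was at 1.40 ± 0.110 TPM in young, 2.79 ± 0.952 in aged and 1.50 ± 0.271 in treated livers. Without aged replicate 3, Ddit3 and E2f1 were called higher and Ppara and Nr1h4 lower with age, and Ddit3 higher against young livers. That fit called 696 of all genes with age and 1263 against young. Foxo1, Foxo3 and Foxo4, picked after their values were seen because FOXO factors are known regulators of Atg14 in liver, differed by 0.31, 0.43 and 0.04 with the drug, and none passed (limma adjusted p from 0.286 to 0.892).

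**Figure D5:**
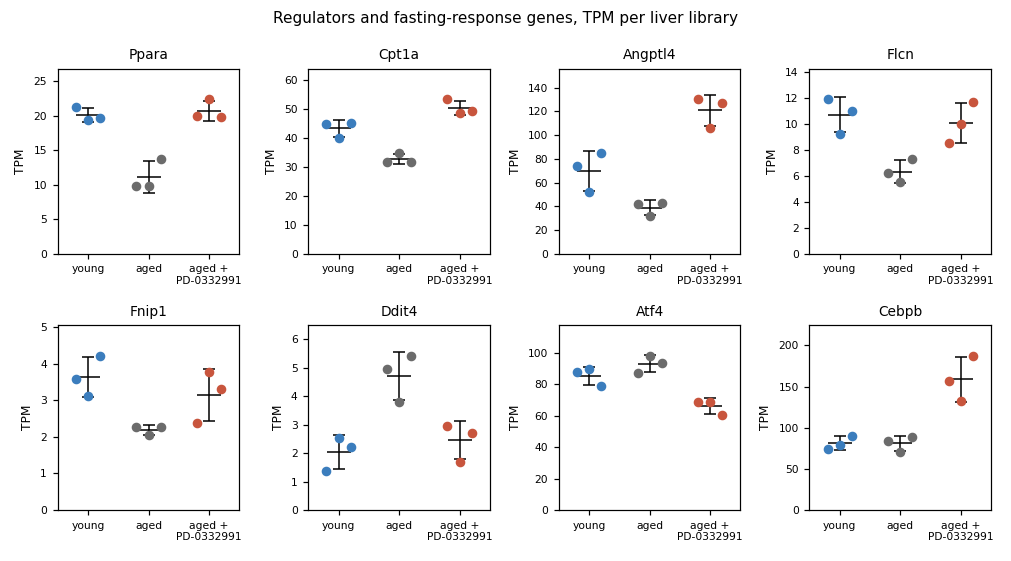
TPM per library of 8 regulators and fasting-response genes, by group, with the mean and SD in black and axes that start at 0. Ppara, Cpt1a, Angptl4 and Flcn are lowest in aged livers, Ddit4 is highest there, and Cebpb is highest and Atf4 lowest in treated livers.

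Fasting-response genes and targets of FOXO had 2 of 17 tested members higher with the drug and none lower (11.8%, against 1.45% of all genes called), with a median of 0.48 against -0.09 for all genes. Cpt1a, the gate of mitochondrial fat oxidation, read 44.9, 40.0 and 45.1 TPM in young, 31.6, 35.0 and 31.7 in aged, and 53.4, 48.8 and 49.3 in treated libraries (0.62 with the drug, limma adjusted p = 0.0158, lost without treated replicate 2 or 3 at 0.0659 and 0.0728). Angptl4, a PPAR-alpha target, was the other. Pck1 (1.09, limma adjusted p = 0.192) and Klf15 (0.70, 0.191) did not pass, but both did without aged replicate 3. In that fit 4 members were higher and none lower with the drug, and 392 of all genes were called. Against young livers Irs2 (1.37, limma adjusted p = 0.00809), Trib1 (0.80, 0.0155) and Angptl4 (0.81, 0.0266) were higher. Those of Trib1 and Angptl4 were lost in 3 and 5 of the 9 fits that left out 1 library, with adjusted p up to 0.0695 and 0.0874.

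Atg14 is also known to follow the circadian clock, and the hour of collection is not given in the labels. Of 17 tested clock genes 2 passed in each comparison (11.8%, against 1.10%, 1.45% and 6.88% of all genes). Cry1 was higher with age and lower with the drug, Per1 was higher with the drug, Nfil3 was higher with age, and Per1 and Nfil3 were higher in treated than in young livers. Cry1, a repressor of the clock, read 2.51, 1.94 and 1.49 TPM in young, 4.40, 6.02 and 4.71 in aged, and 1.42, 1.62 and 2.70 in treated libraries (1.17 with age, limma adjusted p = 0.0328; -1.23 with the drug, 0.0215). Its aged libraries lay above all others, the reverse of Atg14, where they lay below. Per1 was at 2.28 ± 0.618 TPM in aged and 5.02 ± 1.24 TPM in treated livers (0.99, limma adjusted p = 0.0424). Nfil3, a repressor that acts in the clock, had log2 fold changes of 0.92 with age (limma adjusted p = 0.0144, lost without young replicate 1 or 2) and 1.47 against young (0.00109). Per1 was higher in treated than in young livers by 1.0 (limma adjusted p = 0.0182, lost in 5 of 9 fits). The calls of Cry1 were lost in 5 (age) and 3 (drug) and that of Per1 in 6 of the 9 fits that left out 1 library (adjusted p up to 0.115, 0.0995 and 0.161). Arntl (-1.12, limma adjusted p = 0.0512) and Nr1d2 (1.01, 0.0932) did not pass with the drug.

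Aged replicate 3 departed from the other aged libraries in clock output genes, named here after their values were seen. It also did so in acute phase and other genes, given with the marker sums. Dbp, a clock-controlled transcription factor, read 0.645, 0.576 and 14.3 TPM in aged replicates 1, 2 and 3, between 6.51 and 14.8 TPM in young and between 6.99 and 27.7 TPM in treated libraries. Nr1d1, the repressor REV-ERB alpha, read 12.5, 10.6 and 41.4 TPM in aged, 24.6 to 30.9 TPM in young and 55.3 to 59.3 TPM in treated libraries. In both genes the first 2 aged libraries lay below all young ones and the third did not. Tef (8.77, 8.85 and 18.9 TPM in aged libraries) and Per3 (0.305, 0.456 and 1.77 TPM) showed the same split. With all libraries none of these 4 genes passed with age or with the drug (limma adjusted p from 0.117 to 0.550). Without aged replicate 3, the number of all genes called rose from 112 to 696 with age and from 147 to 392 with the drug. Of 16 clock genes tested in that fit, 2 were higher and 4 lower with age, and 7 higher and 2 lower with the drug. With all libraries these counts were 2 and 0, and 1 and 1, of 17. In the fit without aged replicate 3, Nr1d1 had log2 fold changes of -1.24 with age (limma adjusted p = 0.000244) and 2.28 with the drug (2.22e-06). Atg14 read 3.63 TPM in that library, beside 3.68 TPM in aged replicate 2, and its rise with the drug was 1.06 without it (limma adjusted p = 0.00144). Whether the clock genes bear on the levels of Atg14 was not tested.

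Over the 9 libraries, the genes whose log2(TPM + 0.5) was most like that of Atg14 were sought among 5665 other tested genes that averaged at least 5 TPM, clone and predicted names left out. The 8 with the highest Pearson correlation, between 0.916 and 0.971, were Morf4l2, Nudt4, Zfp259, Raph1, Apobec1, Angptl4, Tspan31 and H2-K2. Morf4l2, first among them, was at 48.0 ± 1.5 TPM in young, 43.0 ± 1.27 in aged and 67.1 ± 7.79 in treated livers. Within the set of 38, Map1lc3b was the most like Atg14 (r = 0.899) and Lamp1 the least (r = -0.867). These values describe 9 libraries of 3 groups, and part of each correlation comes from the difference between groups that the genes share.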

How the data were processed

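Liver total RNA was prepared with the TruSeq kit and sequenced from both ends, per the labels' protocols. The authors deposited TPM values per gene symbol, with kallisto and mm10 named in the submitters' processing notes. Version, annotation and summing to genes: not given in the sources used here. Of the 23444 rows, 4 with a repeated symbol were left out. Genes reaching 1 TPM in 3 or more libraries entered the test, on log2(TPM + 0.5), which understates changes of low genes, with limma 3.58.1 in R 4.3.3 (intensity trend, robust variance), all 9 libraries in 1 fit with group as the only term, two-sided, and Benjamini-Hochberg adjustment over all 10161 genes. The step was tested on simulated data. No 2 libraries were identical. Older symbols were matched through RefSeq synonyms (Fam134b for Retreg1); positions and promoters are RefSeq, GRCm38.p6. Values are given for Atg14, for the ATG8 family and for every gene of the 38 with an unadjusted p under 0.05 in a comparison. Of other lists, called genes and up to 2 more, by unadjusted p with the drug, are named. A gene of the fasting-response list is not reported here. Becn1, Pik3c3, Wipi2, Atg3 and Atg7 were added after their values were seen. Members and lists were chosen with earlier results of these data known. Alternatives were 2 pseudocounts, 2 filters, 2 scalings, other variance and weight models, 2 groups only, a replicate block, and leaving out each library.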

Additional observations from a re-analysis of the deposited data

How the results depend on the processing

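The rise of Atg14 with the drug stayed past the threshold under all 19 alternatives (log2 fold change from 1.01 to 1.18, adjusted p up to 0.0418), and its higher level in treated than in young livers under 18, the exception being the fit without treated replicate 2 (0.61, with a range of 0.61 to 0.72 when 1 library was left out). The number of the 38 genes called with age, 0 in the reported fit, was 1 with quantile normalization (Ulk1), 2 with array weights (Ulk1 and Optn) and 0 to 2 when 1 library was left out, with 2 without aged replicate 3. With the drug, 2 became 1 (Atg14) with no filter, with only the 2 groups of the contrast and with the replicate block, and 1 to 2 without 1 library. Against young livers, 2 became 4 with median-of-ratios scaling, 1 with quantile normalization, 6 with array weights, 5 with only the 2 groups of the contrast, and 0 to 6 without 1 library, with 0 without treated replicate 2 and 6 without aged replicate 3. In these alternatives the number of all genes called lay between 15 and 696 with age, 7 and 392 with the drug, and 151 and 1354 against young. Quantile normalization and median-of-ratios scaling moved the median of all genes by under 0.1, from -0.09 with the drug, and turned the split of all calls from 62 higher and 85 lower to 88 and 56 or 109 and 56. Against young the split went from 263 and 436 to 308 and 310 or 359 and 250. Replicate numbers are shared by the groups, and nothing states that they pair libraries. The deviations of same-numbered libraries correlated between -0.22 and 0.17 (9 pairs) and those of other pairs between -0.22 and 0.23. These ranges showed no pairing by number, but so few libraries cannot exclude one. With age the replicate block left 0 of the 38 called, and against young 2. Log2 fold changes near 0 changed sign in 24 of 1188 refits of the named genes of the 38, none beyond 0.0612 in size. With age, Uvrag was -0.13 to 0.0178 over fits leaving out 1 library, with the sign changed without young replicate 1 or aged replicate 2. Atg2a was -0.19 to 0.0612 over fits leaving out 1 library, with the sign changed without young replicate 1. Map1lc3b was 0.0125 with array weights and -0.10 to 0.0161 over fits leaving out 1 library, with the sign changed without young replicate 1 or aged replicate 2 or aged replicate 3. Gabarap was -0.0246 with quantile normalization and -0.0206 to 0.10 over fits leaving out 1 library, with the sign changed without young replicate 1 or young replicate 3. Sqstm1 was -0.00251 with array weights and -0.00499 to 0.10 over fits leaving out 1 library, with the sign changed without young replicate 2 or aged replicate 3. Tfeb was -0.21 to 0.00499 over fits leaving out 1 library, with the sign changed without young replicate 2. With the drug, Ulk2 was 0.0229 with median-of-ratios scaling and 0.0121 with quantile normalization. Pik3r4 was 0.000340 with quantile normalization. Gabarapl2 was 0.0540 with median-of-ratios scaling and -0.12 to 0.0247 over fits leaving out 1 library, with the sign changed without aged replicate 3. Optn was -0.0243 to 0.15 over fits leaving out 1 library, with the sign changed without aged replicate 2. Tfe3 was -0.0103 to 0.13 over fits leaving out 1 library, with the sign changed without aged replicate 3. Against young, Bnip3 was -0.0254 to 0.12 over fits leaving out 1 library, with the sign changed without young replicate 1 or treated replicate 3. Lamp1 was 0.0396 with median-of-ratios scaling. The causes were not tested. TPM keeps no depth, so no limit from counting can be given for low genes such as Tecpr1 and Atg10.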
